A study of Homo sapiens with 4 samples.

Results

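The genes around LOC730101 on the short arm of chromosome 6 (6p12) were examined in prostate cancer cells in which this long noncoding RNA (lncRNA) was depleted. The genes were selected on position and on measured counts. A gene entered the set when its annotation on chromosome 6 began between 45 and 58 Mb (hg38) and it had at least 40 counts summed over the libraries. This rule took 40 of the 60606 genes in the count table, LOC730101 and 39 neighbours, after 3 genes of the window (MCM3, PRIM2 and CENPQ) had been left out by name. The window held 198 genes, of which 155 were under the count threshold and 118 of these had 0 counts in every library. The gene with the fewest counts inside the threshold was ENSG00000249379 with 45 counts, followed by PKHD1 and ADGRF4 with 58 each, and the nearest outside were CYP39A1 with 37, PLA2G7 with 36 and ENSG00000271218 with 29.

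The study asked what LOC730101 does in cells that resist darolutamide, an antagonist of the androgen receptor. LNCaP-DaroR (DaroR) cells are a resistant derivative of LNCaP, an androgen-responsive line from a prostate cancer metastasis, so every library came from 1 resistant line. According to the study, the DaroR cells were grown with darolutamide in the medium. Poly(A) RNA was sequenced from 2 libraries treated with control siRNA (siControl) and 2 treated with siRNA against LOC730101 (siLOC730101), both in the DaroR background. The labels do not say whether the libraries of a group came from separate cultures, so p-values measure only the spread between these libraries.

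LncRNAs can act on genes in trans, away from the site where they are made, or in cis, on the genes beside their own locus, and for a lncRNA of the second kind depletion may alter its neighbours. The measurement of the neighbours after knockdown therefore addresses where changes occur on the chromosome. An siRNA cuts the mature RNA and does not remove the DNA or stop transcription of the locus. The region holds the alpha class glutathione S-transferase cluster (GSTA genes), whose enzymes conjugate glutathione to electrophiles and lipid peroxidation products, together with GCLC, the catalytic subunit of the enzyme that makes the first step of glutathione synthesis. It also holds ELOVL5, an elongase of polyunsaturated fatty acids, and a pair of muscle microRNA genes, MIR206 and MIR133B.

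The start of LOC730101 and that of its closest neighbour are shown because both genes lie in 1 orientation on the plus strand, with 1.96 kb between the end of LOC730101 and the start of TMEM14A. The sequences cover 250 bases before to 50 after each RefSeq start (GRCh38.p14), at chr6:52664151-52664450 and chr6:52670863-52671162. Capitals mark matches to 3 motifs, searched on both strands. They are TATAAA (the TATA box), CCAAT (the CCAAT box), and TGACNNNGC (the antioxidant response core).
LOC730101: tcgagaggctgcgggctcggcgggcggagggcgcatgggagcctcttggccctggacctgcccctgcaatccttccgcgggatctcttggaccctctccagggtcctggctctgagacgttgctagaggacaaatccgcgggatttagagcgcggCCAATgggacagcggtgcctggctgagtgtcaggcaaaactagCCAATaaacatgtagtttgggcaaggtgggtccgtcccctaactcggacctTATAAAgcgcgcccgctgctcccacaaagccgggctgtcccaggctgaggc
TMEM14A: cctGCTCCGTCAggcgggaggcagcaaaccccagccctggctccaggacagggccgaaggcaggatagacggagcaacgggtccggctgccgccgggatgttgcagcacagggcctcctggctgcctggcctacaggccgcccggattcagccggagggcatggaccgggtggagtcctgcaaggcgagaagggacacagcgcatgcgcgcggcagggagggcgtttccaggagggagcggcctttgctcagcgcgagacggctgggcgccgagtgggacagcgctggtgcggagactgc
The LOC730101 window held a pair of CCAAT letters and a TATAAA that began at the base before the RefSeq start, while the annotation used for counting placed the start of the gene further upstream, at 52664366. The TMEM14A window held neither, and held 1 antioxidant core at its far end, on the minus strand. Among all 35116 RefSeq promoter windows of this length, 11.5% held TATAAA, 34.6% CCAAT and 13.3% the antioxidant core. Of the 40 genes, 29 had a RefSeq window, with 37 windows in all. TATAAA was found in 4 of the 29 genes (LOC730101, GSTA1, GSTA2 and GCLC), CCAAT in 11 and the antioxidant core in 5 (TMEM14A, GSTA4, ENPP5, DST and RCAN2). A gene was counted when any of its windows held the motif, so these counts are not directly comparable with the shares of windows.

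GSTA1 and GSTA2 are related genes on the minus strand, with the pseudogene GSTA12P between them, and their start regions are shown because the 2 genes differed widely in level while these windows were nearly alike. The windows lie at chr6:52803767-52804066 and chr6:52763426-52763725 and are printed in the direction of transcription. Capitals mark the bases that differ.
GSTA1: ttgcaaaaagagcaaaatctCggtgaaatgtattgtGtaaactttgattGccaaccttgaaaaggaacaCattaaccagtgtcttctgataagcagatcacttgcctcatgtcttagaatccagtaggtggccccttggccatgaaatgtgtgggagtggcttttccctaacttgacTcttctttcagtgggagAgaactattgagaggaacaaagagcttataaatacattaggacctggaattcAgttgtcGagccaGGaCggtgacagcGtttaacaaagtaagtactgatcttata
GSTA2: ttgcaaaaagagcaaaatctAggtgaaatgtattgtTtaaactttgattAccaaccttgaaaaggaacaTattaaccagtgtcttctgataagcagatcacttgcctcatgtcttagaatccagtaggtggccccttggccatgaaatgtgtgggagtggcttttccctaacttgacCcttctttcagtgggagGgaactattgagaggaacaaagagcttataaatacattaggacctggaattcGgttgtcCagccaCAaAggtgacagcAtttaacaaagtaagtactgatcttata
The windows matched at 288 of 300 positions (96%) without a gap, with 7 of the differing bases before the RefSeq start and 5 after it.

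The microRNAs of the region are shown because the study concerns miR-1-3p, which is encoded on chromosomes 18 and 20 and shares its seed with miR-206. The mature sequences are from RefSeq, with the seed (bases 2 to 8 from the 5′ end) in capitals.
miR-206: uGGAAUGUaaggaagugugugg
miR-1-3p: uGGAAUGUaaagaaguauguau
miR-133b: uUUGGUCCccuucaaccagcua
MiR-206 and miR-1-3p were identical at 18 of 22 positions. The substitutions, counted from the 5′ end with the base of miR-1-3p first, were A11G, A17G, A21G and U22G. The mature miR-206 lies at chr6:52144401-52144422, on the side of LOC730101 that holds TRAM2 and PAQR8. The genes MIR206 and MIR133B, as well as the transcript LINCMD1, which spans MIR133B, had 0 counts in each library, and poly(A) libraries do not measure mature microRNAs.

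The knockdown was examined first in LOC730101 itself (ENSG00000216775, chr6:52664366-52669155, plus strand). The siControl libraries contained 2560 and 2370 counts of LOC730101, against 633 and 680 in those with siLOC730101. In normalized CPM (counts scaled for library size and composition), these were 47.4 and 50.6 against 15.4 and 17.9. Both siLOC730101 libraries were below both siControl libraries, at 31.4% and 36.6% of the siControl mean. LOC730101 fell from 49.0 ± 2.32 to 16.7 ± 1.77 CPM (SD, n = 2 per group), a log2 fold change of -1.56 (SE 0.12, 95% interval -1.80 to -1.31) with an adjusted p of 4.34e-06 in edgeR's quasi-likelihood test. This is a 2.94-fold lower level (95% interval 2.48 to 3.49). A lower level in all cells and a loss in part of the cells cannot be told apart in bulk RNA.

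None of the 38 neighbours that could be tested was called at an adjusted p of 0.05. In the same fit of 19349 genes, 41 genes (0.212%) were higher and 14 (0.0724%) were lower, LOC730101 among the latter, and at such shares a call among 38 genes would be rare. At an unadjusted p under 0.05 the count of neighbours was again 0, against 10.8% of all genes tested. With DESeq2 the count was also 0, over the 21 neighbours that received an adjusted p, against 2.87% of all genes with one. The lowest adjusted p of a neighbour in edgeR was 0.600, for KIAA1586. The counts over all genes changed with the library left out. Each such fit kept 1 library in a group, which was assumed to vary like the other group, so its calls are not set beside these. The log2 fold change of DST was -0.37 without siLOC730101 replicate 1.

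The 38 log2 fold changes were centred near 0. They were above 0 in 22 and below in 16, with a median of 0.032 and an interquartile range of -0.14 to 0.19, beside a median of -0.0021 and a range of -0.18 to 0.15 over all genes tested. The median of the neighbours was -0.0325 without siLOC730101 replicate 2. In 22 of the 38 (57.9%) the log2 fold change was smaller than its standard error, as in 58% of all genes. The groups did not overlap in 7 neighbours that were higher with siLOC730101 and in 7 that were lower, against 21.3% and 20.5% of all genes. The 7 higher were ENPP5, RCAN2, GSTA4, GCLC, KIAA1586, RAB23 and LINC00680, and the 7 lower included ENPP4, ADGRF4, MMUT, FBXO9, ENSG00000271367 and ZNF451-AS1.

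**Figure D1:**
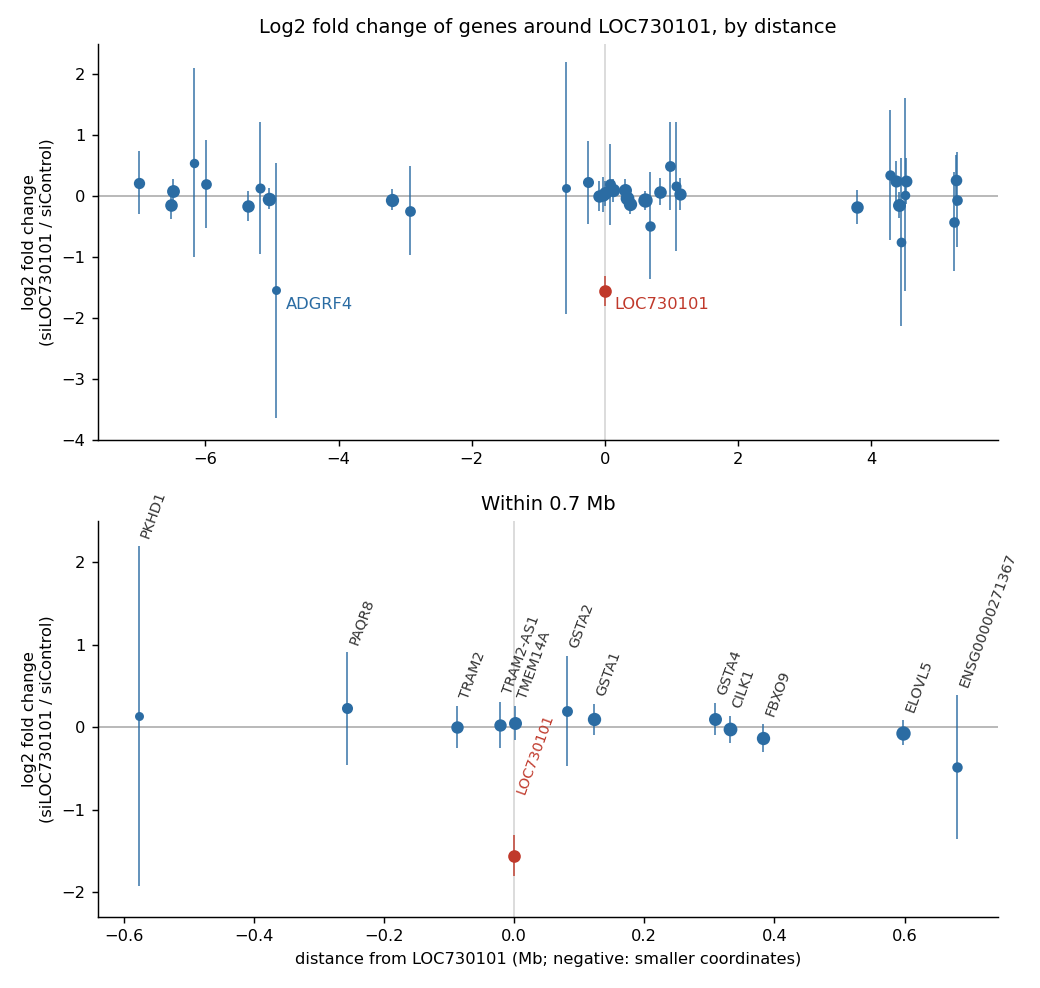
Log2 fold change (siLOC730101 against siControl) with its 95% interval against the distance from LOC730101 in Mb, for 38 of the 39 genes tested (upper panel) and those within 0.7 Mb (lower panel), with larger points for higher mean counts. LOC730101 stands at -1.56 while the intervals of the neighbours shown hold 0, and ADGRF4, at -1.55, has an interval of -3.64 to 0.55.

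How narrowly a change could be bounded went with the counts. The 95% interval held 0 in all 38 neighbours and lay within 1.5-fold in both directions in 19 of them, each with a mean of at least 719 counts per library. It lay within 2-fold in 27. The 11 neighbours whose interval passed 2-fold had a mean of 130 counts or fewer, so that a change of that size was not excluded by their own interval. In 4 weakly expressed neighbours (ADGRF4, PKHD1, ZNF451-AS1 and BAG2) the interval reached the log2 fold change of LOC730101. The rank correlation (Spearman) of the size of the log2 fold change with mean count was -0.57 across the 38 genes, which share libraries and are not independent.

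**Figure D2:**
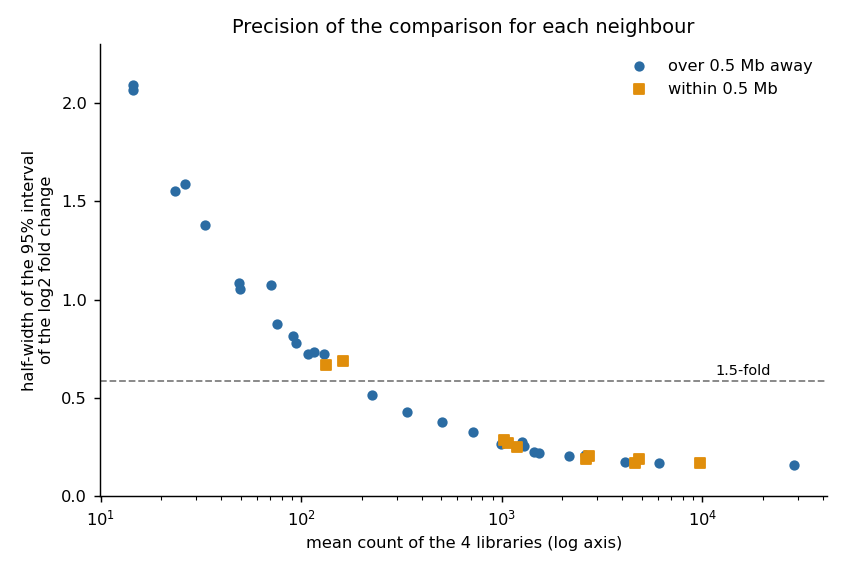
Half-width of the 95% interval of the log2 fold change against the mean count of the 4 libraries (log axis) for the 38 neighbours tested, with squares for the 10 within 0.5 Mb of LOC730101 and a dashed line at 1.5-fold. The interval narrows with the count, and 2 of the 10 close neighbours, PAQR8 and GSTA2, lie above the line.

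Of the 10 neighbours within 0.5 Mb, 9 were described singly. TMEM14A, a small mitochondrial membrane protein, begins just downstream of LOC730101 (chr6:52671113-52686588) and shares no exon base with it. TMEM14A had 55.5 and 64.7 CPM in siControl and 61.2 and 62.8 CPM in siLOC730101 libraries. The siLOC730101 values lay between the siControl values. The log2 fold change was 0.046 (SE 0.097, 95% interval -0.16 to 0.25, adjusted p = 0.923 in edgeR), and it ranged from -0.059 to 0.16 as each library was left out. Per kb of exon, LOC730101 was at 0.221 and 0.203 of the level of TMEM14A in the siControl libraries and at 0.0651 and 0.0737 in the siLOC730101 libraries, lower in both siLOC730101 libraries.

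On the other side, TRAM2-AS1 (chr6:52576787-52643058), a lncRNA on the plus strand, ends 21.3 kb before LOC730101. TRAM2-AS1 was at 21.3 and 24.4 CPM in siControl and at 21.0 and 25.6 CPM in siLOC730101 libraries. The spread within each group was wider than the difference between their means, and the log2 fold change was 0.027 (SE 0.13, adjusted p = 0.972 in edgeR). TRAM2 (chr6:52497408-52577060), which encodes a protein linked to collagen synthesis at the endoplasmic reticulum, is transcribed away from TRAM2-AS1 on the minus strand. TRAM2 was at 25.5 and 27.5 CPM in siControl and at 25.1 and 28.0 CPM in siLOC730101 libraries, and the groups overlapped. Its log2 fold change was 0.0016 (SE 0.12, 95% interval -0.25 to 0.25), which was below 0 under several scalings.

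PAQR8 (chr6:52361421-52407777), a membrane progesterone receptor, was at 3.40 and 3.35 CPM in siControl and at 2.60 and 5.32 CPM in siLOC730101 libraries. The siLOC730101 libraries stood on either side of the siControl libraries, and the log2 fold change of 0.23 (SE 0.32) was -0.38 without siLOC730101 replicate 2 and 0.66 without replicate 1.

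The GSTA genes lie on the TMEM14A side. GSTA2 (chr6:52750087-52763475) was at 3.35 and 2.18 CPM in siControl and at 3.41 and 2.92 CPM in siLOC730101 libraries, and the groups overlapped. GSTA1 (chr6:52791371-52803860) was at 99.1 and 111.1 CPM in siControl and at 107.1 and 117.6 CPM in siLOC730101 libraries, and also overlapped. The log2 fold changes were 0.19 (SE 0.31) for GSTA2 and 0.096 (SE 0.088) for GSTA1, with adjusted p-values of 0.895 and 0.767 in edgeR. Per kb of exon, GSTA1 was at 36.8 times the level of GSTA2 in siControl and at 34.3 times in siLOC730101 libraries. The transcripts of GSTA1 and GSTA2 were 95.2% identical over 1218 aligned bases, and 9.80% of the 100-base stretches of the GSTA2 transcript occurred unaltered in GSTA1, so the split of reads between them is uncertain. GSTA4 (chr6:52977948-52995304), which acts on the lipid peroxidation product 4-hydroxynonenal, was at 56.0 and 57.2 CPM in siControl and at 62.1 and 59.3 CPM in siLOC730101 libraries. Both siLOC730101 values of GSTA4 were higher, with a log2 fold change of 0.0996 (SE 0.089, adjusted p = 0.761 in edgeR).

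CILK1 and FBXO9 lie furthest out among the 10 and overlap in position on opposite strands. CILK1 (chr6:53001279-53061824), a kinase that controls the length of cilia, was at 210.9 and 223.3 CPM in siControl and at 223.5 and 202.9 CPM in siLOC730101 libraries. The groups overlapped, with a log2 fold change of -0.026 (SE 0.078, adjusted p = 0.951 in edgeR). FBXO9 (chr6:53051991-53100873), the substrate receptor of an SCF ubiquitin ligase, was at 105.1 and 107.9 CPM in siControl and at 99.0 and 95.9 CPM in siLOC730101 libraries. Both siLOC730101 values were lower, and the log2 fold change was -0.13 (SE 0.080, 95% interval -0.30 to 0.043, adjusted p = 0.612 in edgeR).

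**Figure D3:**
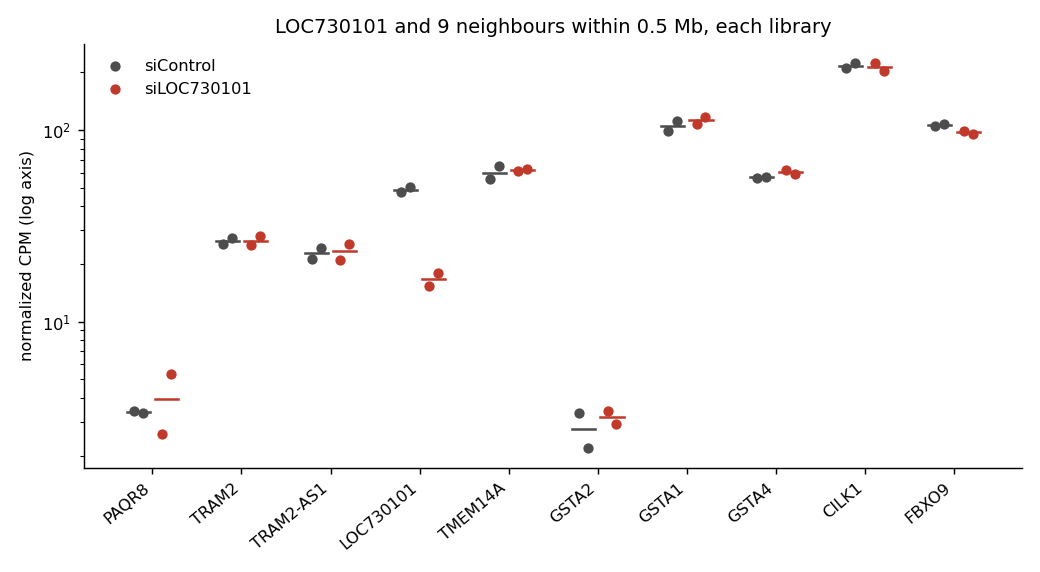
Normalized CPM (log axis) of LOC730101 and 9 of its 10 neighbours within 0.5 Mb, in order of position, with 1 point per library and a line at the mean of each group. The siLOC730101 libraries are at 15.4 and 17.9 CPM for LOC730101 against 47.4 and 50.6 for siControl, and the groups of the other 9 genes overlap or lie close together.

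The neighbours were then divided by distance. Among the 10 within 0.5 Mb, 7 log2 fold changes were above 0 and 3 below, with a median of 0.037, which was -0.055 without siControl replicate 1. The interval lay within 1.5-fold in 8 of these 10, all but PAQR8 and GSTA2. Of 7 neighbours at 0.5 to 2 Mb, 5 were above 0 and the median was 0.070. Of 21 beyond 2 Mb, 10 were above 0 and the median was -0.040. The median over 836 other genes of chromosome 6 was 0.016, and 2 of them were called. Across the 31 neighbours with a mean count above 50, the rank correlation of the size of the log2 fold change with distance was 0.32, given as a description only. The size also went with mean count (rank correlation -0.57 over all neighbours tested), and the part of count in the value for distance was not tested.

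By function, the glutathione genes were described first. Beside the GSTA genes, GCLC, 828 kb from LOC730101, was at 33.8 and 33.3 CPM in siControl and at 36.0 and 34.5 CPM in siLOC730101 libraries, with a log2 fold change of 0.070 (SE 0.10). The log2 fold change was above 0 in all 4 measured members (GSTA1, GSTA2, GSTA4 and GCLC), from 0.070 to 0.19, and none was called. GSTA2 was below 0, at -0.078, without siControl replicate 2. GSTA3 had 0 counts in each library and GSTA5 had 1 count in all, while the pseudogenes GSTA8P, GSTA9P and GSTA12P had 20, 15 and 13 counts in all. A count of 0 allows up to 3 counts, which corresponds to 0.0555 to 0.079 CPM in these libraries. This takes each count as an independent read. Most low counts were even, and if both reads of a pair were counted this floor is too low, which was not tested.

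Other glutathione genes of the genome gave a comparison. Of 31 in the table, 24 were tested and none was called. Of these, 20 were above 0 and 4 below, beside 9602 above 0 among all 19349 genes tested. The median was 0.10, and no test was run over the list. The 2 of the 24 with an unadjusted p under 0.05 were the glutathione peroxidases GPX1 and GPX4, against 10.8% of all genes tested. GPX1 was at 242.7 and 246.7 CPM in siControl and at 285.4 and 368.9 CPM in siLOC730101 libraries (log2 fold change 0.42, SE 0.098, adjusted p = 0.0963 in edgeR). GPX4 was at 330.6 and 337.7 against 391.9 and 437.8 CPM (log2 fold change 0.31, SE 0.076, adjusted p = 0.106 in edgeR). GCLM, the modifier subunit that pairs with GCLC, had a log2 fold change of 0.016 (SE 0.080), and GSTP1 had 0 counts in each library.

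The most abundant gene of the region was ELOVL5, 598 kb from LOC730101, with 34.8% of the counts on the 40 genes. ELOVL5 was at 685.4 and 616.9 CPM in siControl and at 610.7 and 633.7 CPM in siLOC730101 libraries, and the groups overlapped. Its log2 fold change was -0.066 (SE 0.073, 95% interval -0.22 to 0.090, adjusted p = 0.819 in edgeR), the narrowest interval among the neighbours. Other metabolic genes were MMUT, the mitochondrial methylmalonyl-CoA mutase (-0.056, SE 0.081), and SLC25A27, a mitochondrial carrier (0.19, SE 0.34). MMUT was at 93.7 and 93.3 CPM in siControl and at 89.5 and 90.4 CPM in siLOC730101 libraries, which did not overlap although they lay close together. The ectonucleotide phosphodiesterase genes ENPP4 and ENPP5, next to each other, had log2 fold changes of -0.15 (SE 0.11) and 0.088 (SE 0.095).

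Among genes of membranes and signalling, TNFRSF21, a death receptor, had a log2 fold change of -0.16 (SE 0.12) and RCAN2, an inhibitor of calcineurin, one of 0.55 (SE 0.73). RCAN2 rested on 26, 18, 24 and 26 counts. ADGRF4, an adhesion G protein-coupled receptor, had 30 and 16 counts in siControl and 6 and 6 in siLOC730101 libraries. Both siLOC730101 values were lower, but the log2 fold change of -1.55 had a standard error of 0.98 and an adjusted p of 0.619 in edgeR. CRISP3, a secreted protein of prostate and other glands, was at 3.48 and 2.01 against 2.19 and 2.48 CPM. The groups of CRISP3 overlapped and its log2 fold change, -0.24, was 0.22 without siControl replicate 1.

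Genes of cilia and the cytoskeleton were spread over the whole window. RAB23, a GTPase of Hedgehog signalling and cilia, was at 11.8 and 8.78 CPM in siControl and at 12.4 and 12.0 CPM in siLOC730101 libraries (log2 fold change 0.25, SE 0.18). RAB23 shares 57.8% of its exon bases with BAG2 on the opposite strand. The counting command had no strand option, so reads from the shared part cannot be assigned to a strand. PKHD1, the gene of the cilia protein fibrocystin, had 18, 13, 21 and 6 counts and an interval of -1.93 to 2.20. CD2AP, an adaptor of the actin cytoskeleton, was at 135.1 and 139.0 against 139.2 and 127.3 CPM, and the groups overlapped (log2 fold change -0.040, SE 0.080). DST, the linker protein dystonin, was at 29.8 and 29.2 against 29.3 and 22.6 CPM. A single siLOC730101 library set the value of DST, since the log2 fold change of -0.18 (SE 0.13) was -0.37 without replicate 1 and -0.0098 without replicate 2. LRRC1, a scaffold protein of cell polarity, had a log2 fold change of 0.037 (SE 0.12).

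Among ubiquitin and chaperone genes, KLHL31, a Kelch protein known from muscle, was at 3.07 and 1.79 CPM in siControl and at 2.77 and 4.11 CPM in siLOC730101 libraries. The groups of KLHL31 overlapped (log2 fold change 0.50, SE 0.34, adjusted p = 0.656 in edgeR). BAG2, a co-chaperone of HSP70, had 35, 24, 12 and 34 counts. Among genes of transcription and the nucleus, RUNX2, a transcription factor of bone, was at 4.18 and 5.15 against 6.13 and 4.71 CPM and overlapped (0.22, SE 0.24). ZNF451, a SUMO ligase, had a log2 fold change of -0.15 (SE 0.099). KIAA1586 was at 13.1 and 16.6 against 18.5 and 16.7 CPM, with log2 fold change 0.25 (SE 0.15). Both siLOC730101 values of KIAA1586 were higher, the second by less than the gap within either group. BEND6, a BEN domain protein, was at 2.02 and 0.769 against 1.17 and 2.40 CPM, where each group held a high and a low library.

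Other lncRNA genes and genes with no symbol had low levels, all under those of LOC730101 per kb of exon. The 40 genes included 5 with RefSeq lncRNA records and 5 with no RefSeq symbol. LINC00680 was at 6.10 and 7.80 CPM in siControl and at 8.08 and 8.53 CPM in siLOC730101 libraries (log2 fold change 0.26, SE 0.20). CD2AP-DT, which shares 39.03% of its exon bases with CD2AP, had a log2 fold change of 0.14 (SE 0.51), and ZNF451-AS1, which shares 20.9% with ZNF451, one of -0.75 (SE 0.65). ENSG00000271367, which begins 979 nt from the start of ELOVL5, had 104, 89, 70 and 39 counts (log2 fold change -0.48, SE 0.41). ENSG00000272316, ENSG00000225096 and ENSG00000227885 had log2 fold changes of -0.42 (SE 0.38), -0.056 (SE 0.37) and 0.16 (SE 0.50), and their groups overlapped. ENSG00000249379, within GCLC on the opposite strand, had 10 and 31 counts in siControl and 3 and 1 in siLOC730101 libraries. It was the 1 neighbour left untested by the filter on low counts, and without that filter its unadjusted p was under 0.05 and its adjusted p was 0.498 in edgeR. ENSG00000249379 reached the threshold of 40 counts only through the siControl libraries. Its contrast is thus tied to its selection, and no reading is drawn from these p-values. Sets of genes that begin close to each other on opposite strands numbered 6, and in none was either gene called.

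Across the 40 genes the levels per kb of exon ranged widely. In siControl libraries ELOVL5 was at 170.8 CPM per kb, GSTA1 at 83.3, TMEM14A at 60.8, CILK1 at 34.4 and GSTA4 at 27.0. LOC730101, at 12.8 CPM per kb, ranked 9, next to FBXO9 at 12.97 and ENPP5 at 10.97, and was the highest of the lncRNAs. In siLOC730101 libraries LOC730101 was at 4.36 CPM per kb, close to LRRC1 at 4.55 and GCLC at 4.08. At the low end PKHD1 was at 0.0175 CPM per kb in siControl libraries. 

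**Figure D4:**
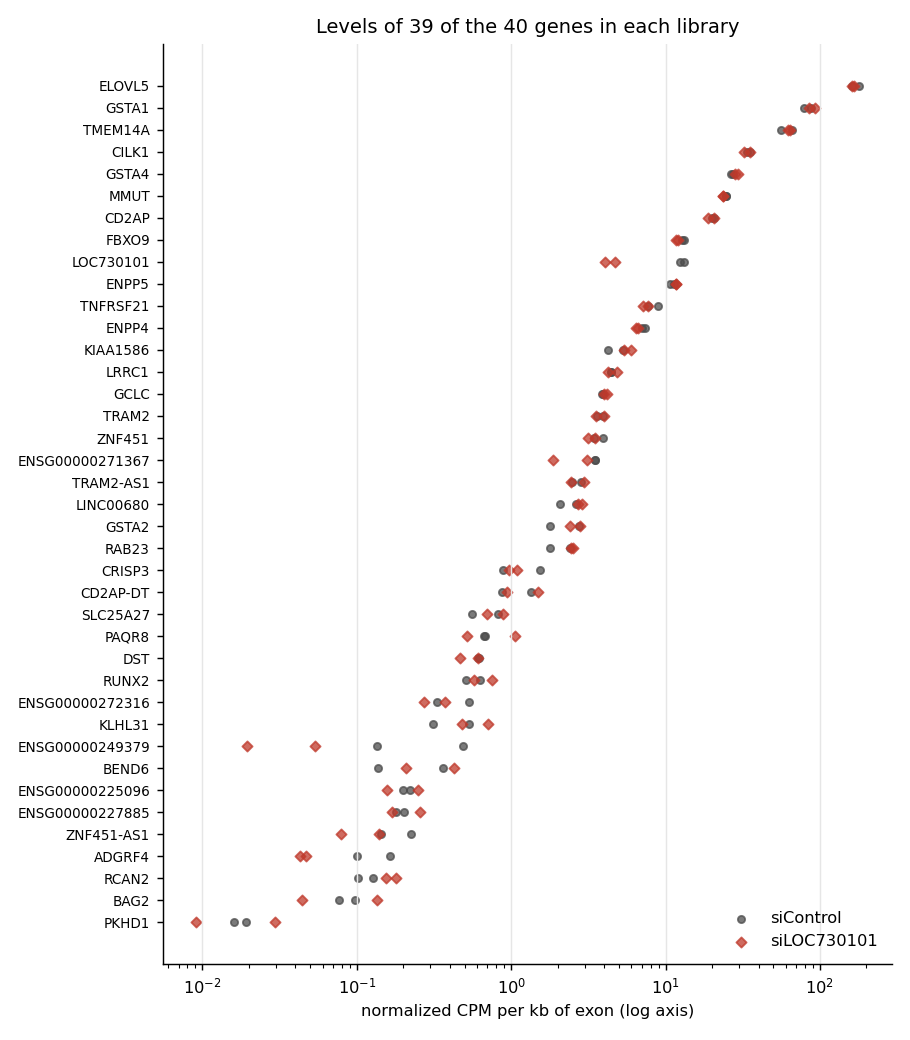
Normalized CPM per kb of exon (log axis) of 39 of the 40 genes in each library, ordered by the siControl mean, with circles for siControl and diamonds for siLOC730101. The symbols of LOC730101 stand apart (12.8 against 4.36 on average), while those of the other well expressed genes lie close together.

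The libraries held 39213498 to 53368158 counts, of which the 40 genes took 0.173% to 0.190%. The 9 luminal markers of prostate epithelium were all present, with a summed level of 6765 to 7649 CPM. Of 3 basal markers KRT5 and TP63 had 0 counts and KRT14 had 8 to 24. Of 3 leukocyte markers PTPRC and CD3E had 0 counts and the sum was at most 0.256 CPM. The fibroblast markers summed to between 10.98 and 14.78 CPM, nearly all of it COL1A1 (451 to 797 counts), with COL1A2 at 0. The endothelial markers summed to 5.84 to 9.44 CPM, nearly all of it VWF (238 to 442 counts), with CDH5 at 0. The muscle markers summed to at most 0.128 CPM. The part of these markers in the results was not tested.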

How the data were processed

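RNA sequencing counts of 4 DaroR libraries, 2 siControl and 2 siLOC730101, were analysed. Deposited values are raw counts. Per the file headers, the authors counted reads on exons by gene name with featureCounts 2.0.1, hg38 and gencode version 41, and set no option for read pairs or strand. The labels list FastQC, Trim Galore, BWA, featureCounts and DESeq2, whereas the methods of the study name STAR and hg19, so the aligner is uncertain. Between 66.0% and 70.1% of the counts from 1 to 20 were even, and halved counts were one alternative.

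Members and lists were chosen with earlier results of these data known. The selection used the summed counts, not the contrast, but ADGRF4 and ENSG00000249379 reached the threshold through the siControl libraries. Genes passing filterByExpr (19349) were fitted in R 4.3.3 with edgeR 4.0.16 (TMM, glmQLFit, glmQLFTest, condition only), adjusted by Benjamini-Hochberg over all genes. Intervals are 95%. CPM are mean ± SD, and intervals and floors cover counting and library spread only. LOC730101 was found by its RefSeq position. The scripts were tested on simulated data. A single member entered the counts and medians but is not reported here by name. Genes named were the other members, with listed glutathione, fatty acid elongation, 7SK particle, microRNA and marker genes. Alternatives were DESeq2 1.42.0, other scalings, filters and windows, a replicate block and each library left out. Promoter and microRNA sequences are from RefSeq (GRCh38.p14), and the GSTA transcripts were compared in a GRCh37 annotation.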

Additional observations from a re-analysis of the deposited data

How the results depend on the processing

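No neighbour of LOC730101 was called in any alternative fit that kept all libraries, and LOC730101 stayed called in each. Of the 16 alternatives tried for this count, those with a narrower window or a higher threshold on summed counts reused the main fit. Their count of 0 follows from the main result and is no further test. Calls of neighbours in fits with a library left out are not counted here. The log2 fold change of LOC730101 ranged from -1.67 to -1.44 over the 14 alternatives run on all genes. The median log2 fold change of the neighbours ranged from -0.0325 to 0.0258 as each library was left out, and that of the neighbours within 0.5 Mb from -0.0552 to 0.0888. The sign of the log2 fold change was kept by 21 of 38 neighbours under the alternatives that gave them a value, which were 11 to 14 of 14 since DESeq2, a mean count above 50 and halved counts left out some weakly expressed genes. It turned in 17, and in 5 of these also with all libraries kept. Turned values were -0.00181 for TRAM2 with DESeq2 size factors. They were -0.0299 for TRAM2, -0.00473 for TRAM2-AS1, -0.0096 for BAG2, -0.0147 for GCLM and -0.0236 for CDK9 with upper-quartile scaling. They were -0.037 for TRAM2, -0.0124 for TRAM2-AS1, -0.00198 for LRRC1, -0.0215 for BAG2, -0.0208 for GCLM and -0.0304 for CDK9 with library size alone. They were -0.0029 for TRAM2 with no filter. They were -0.0102 for TRAM2 and -0.00408 for CDK9 with a mean count above 50. They were -0.00182 for TRAM2 with the DESeq2 Wald test. They were -0.00672 for BAG2 with the legacy method off. They were -0.0409 for PKHD1 and -0.136 for BAG2 with the replicate block. They were -0.00317 for TRAM2 and -0.0124 for BAG2 with halved counts. As each library was left out, values that turned ranged from -0.23 to 0.48 for CD2AP-DT, -0.573 to 0.217 for CRISP3, -0.081 to 0.0873 for TRAM2, -0.123 to 0.171 for TRAM2-AS1, -0.0586 to 0.163 for TMEM14A, -0.137 to 0.0133 for ELOVL5, -0.411 to 0.228 for ENSG00000225096, -0.0381 to 0.0753 for GCLM, -0.0323 to 0.0534 for CDK9, -0.0472 to 0.496 for SLC25A27, -0.0775 to 0.54 for GSTA2, -0.0885 to 0.0396 for CILK1, -0.262 to 1.21 for BEND6, -0.988 to 0.631 for BAG2, -0.931 to 0.734 for PKHD1, -0.171 to 0.43 for ENSG00000227885, -0.0968 to 0.0196 for CD2AP, -0.378 to 0.664 for PAQR8, -0.0588 to 0.134 for LRRC1 and -0.0536 to 0.182 for ELOVL1. The cause was not tested.

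Same-numbered libraries showed little shared deviation (correlation 0.0481 over 14245 genes). This correlation cannot settle whether the libraries were made in pairs, and the labels do not say. With a replicate block 485 genes were higher and 167 lower, and 0 neighbours were called. Other counts over all genes, higher and lower, were 58 and 35 with library size alone, 38 and 19 with upper-quartile scaling, 324 and 113 with no filter, 141 and 50 with a mean count above 50, 234 and 74 with DESeq2, 87 and 24 with the legacy method off, and 113 and 35 with halved counts. They were 117 and 49 without siControl replicate 1, 111 and 26 without siControl replicate 2, 923 and 272 without siLOC730101 replicate 1 and 77 and 60 without siLOC730101 replicate 2. The lone library of a group was then assumed to vary like the other group. The 11 neighbours whose interval passed 2-fold all had a mean of 130 counts or fewer. CRISP3, SLC25A27 and ENSG00000225096, with means of 116.5, 108.75 and 94 counts, stayed within 2-fold. The part of depth was not tested.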

Other observations

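Genes that work with products of the region were also read. ELOVL5 acts within the fatty acid elongation cycle, and of 14 other genes of elongation and desaturation, 12 were tested, 6 above 0 and 6 below, with a median log2 fold change of 0.016 and none called. HACD2, a dehydratase of the cycle, was at 143.4 and 139.6 CPM in siControl and at 121.9 and 120.7 CPM in siLOC730101 libraries. Both siLOC730101 values were lower (log2 fold change -0.22, SE 0.077, adjusted p = 0.265 in edgeR). HACD2 was the 1 gene of the 12 with an unadjusted p under 0.05, against 10.8% of all genes tested. ELOVL1 had a log2 fold change of 0.065 (SE 0.088).

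RN7SK, the gene of the 7SK RNA that holds the kinase CDK9 inactive, lies in the window and had 0 counts in each library. These are poly(A) libraries, so 0 counts do not show that the 7SK RNA was absent from the cells. The 7 genes of proteins that bind 7SK or CDK9 were all tested, and none was called. Of these, 6 had a log2 fold change above 0, beside 9602 of all 19349 genes tested. CDK9 had a log2 fold change of 0.0076 (SE 0.091). Of 6 genes that encode or host miR-1 and miR-133 elsewhere, 5 had 0 counts in each library, and MIR133A1HG had 10 and 7 counts in siControl and 7 and 7 in siLOC730101 libraries.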
